A study of Mus musculus with 2 samples.

Results

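The genes described here are 9 transcription factor genes that divide the early mouse brain from forebrain to hindbrain: Emx2, Otx1, Nkx2-1, Nkx2-2, Irx3, En1, En2, Gbx2 and Egr2. They are 9 of the 21887 genes that RefSeq annotates as protein-coding on the assembled mouse chromosomes. They were listed by name and not by a rule on signal, but with earlier results of these data known. A peak was assigned to a gene when its summit, the base of highest read pileup, lay in the gene body or within 10 kb of either gene end. The data are 2 ChIP-seq libraries (chromatin immunoprecipitation followed by sequencing) made with a GFP antibody (sc-9996) from snap-frozen heads of mouse embryos at E10.5, in a series on the core histone variant H3.2. Both libraries carry the same labels, which name no strain, genotype, sex, GFP-tagged protein, control library or contrast. They are called library 1 and library 2, and nothing states that they came from separate embryos or how many heads were pooled. Peak positions do not measure RNA, so the head label could not be checked against expressed markers.

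By E10.5 the neural tube is already divided along its length. Emx2 and Otx1 act in the forebrain, Nkx2-1 in the hypothalamus and ventral telencephalon, and Nkx2-2 in a ventral strip under Sonic hedgehog control. Irx3 marks the brain caudal to the anterior forebrain, and En1 and En2 mark the midbrain and its border with the hindbrain. Gbx2 acts on the hindbrain side of that border, opposite Otx2, and Egr2 (Krox20) marks alternate segments of the hindbrain called rhombomeres.

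The libraries were very unequal in these windows. All 9 genes had library 1 summits, 101 in all, and none had a library 2 summit. The deposited list of library 1 holds 584724 peaks and that of library 2 holds 348, of which 127 are on assembled chromosomes. A library 1 summit lay in the same kind of window for 94.8% of all protein-coding genes and a library 2 summit for 0.192%, so neither count sets the 9 genes apart. On the members' chromosomes the nearest library 2 summit lay between 3.10 Mb (Otx1) and 36.1 Mb (Emx2) from the gene. All values below are therefore from library 1 alone and have no replicate. Read totals are not part of the deposited lists, and the precision of a peak rests on its pileup, the number of extended reads stacked at the summit, which was recovered from the deposited fold and −log10 p-value.

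A library 1 peak touched the promoter entry, 250 bases before to 50 after an annotated start, in 3 of the 7 members that have an entry in RefSeq (GRCm38.p6): Nkx2-1, Irx3 and Egr2. An overlap of at least 1 bp was present for 43% of the 17492 genes with an entry. Only the Nkx2-1 peak contained the start site itself. The promoters of these 3 genes are shown because the overlap can be read base by base, and those of Gbx2, the gene with most summits, and of En1, whose start site was farthest from a summit, are shown for contrast. Each runs 5′ to 3′ on the gene's strand from 250 bases before the annotated start to 30 bases from it, and capitals mark bases inside a library 1 peak. The stretches are chr12:56536879-56537158 (minus strand), chr8:91801625-91801904 (minus), chr10:67535249-67535528 (plus, the first of 5 annotated starts of Egr2), chr1:89931147-89931426 (minus) and chr1:120602237-120602516 (plus).
Nkx2-1: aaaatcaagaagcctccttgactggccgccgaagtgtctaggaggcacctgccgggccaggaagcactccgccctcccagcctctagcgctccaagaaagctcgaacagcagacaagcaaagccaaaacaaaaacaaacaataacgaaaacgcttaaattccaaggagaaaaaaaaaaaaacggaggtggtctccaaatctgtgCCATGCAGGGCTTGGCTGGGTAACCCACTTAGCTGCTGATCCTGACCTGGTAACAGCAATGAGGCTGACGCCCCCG
Irx3: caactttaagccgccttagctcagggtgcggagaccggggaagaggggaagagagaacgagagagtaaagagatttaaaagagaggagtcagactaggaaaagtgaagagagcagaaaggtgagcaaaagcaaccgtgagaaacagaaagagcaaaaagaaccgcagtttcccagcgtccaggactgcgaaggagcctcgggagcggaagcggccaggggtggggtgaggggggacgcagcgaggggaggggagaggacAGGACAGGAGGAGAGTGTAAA
Egr2: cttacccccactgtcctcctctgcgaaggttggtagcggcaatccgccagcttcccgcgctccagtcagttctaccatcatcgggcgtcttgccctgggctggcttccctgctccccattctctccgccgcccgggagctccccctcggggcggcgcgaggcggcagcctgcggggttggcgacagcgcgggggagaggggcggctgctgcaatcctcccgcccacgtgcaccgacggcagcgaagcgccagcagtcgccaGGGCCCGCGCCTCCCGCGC
Gbx2: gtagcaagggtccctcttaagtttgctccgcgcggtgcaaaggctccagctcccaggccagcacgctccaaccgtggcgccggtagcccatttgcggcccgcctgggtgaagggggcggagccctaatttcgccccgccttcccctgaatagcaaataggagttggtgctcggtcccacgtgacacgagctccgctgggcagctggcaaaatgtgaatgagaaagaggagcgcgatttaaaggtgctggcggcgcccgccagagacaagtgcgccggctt
En1: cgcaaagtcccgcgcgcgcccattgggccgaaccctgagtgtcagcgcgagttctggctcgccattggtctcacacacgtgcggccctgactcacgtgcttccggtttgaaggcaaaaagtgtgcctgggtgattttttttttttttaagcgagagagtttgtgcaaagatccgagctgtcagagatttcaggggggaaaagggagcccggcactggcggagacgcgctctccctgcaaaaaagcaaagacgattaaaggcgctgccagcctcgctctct

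In Nkx2-1 the peak spanned the start site and covered 76 of the 280 bases shown. In Irx3 and Egr2 the capitals are only the edge of a peak that begins after the start site, 21 and 19 bases of the stretch. The En1 and Gbx2 stretches held no base of a peak. For the whole 300-base entries, 4 short motifs were searched on both strands, chosen after the sequences had been seen. The members have 11 entries, of which 5 belong to Egr2. CACGTG was found in 4 of the 11 (in Nkx2-2, En1, Gbx2 and Egr2) and in 7.84% of 21263 entries of all genes. GGGCGG was found in 6 of the 11 (5 members) and 46.2% of all entries. CCAAT was found in 5 of the 11 (3 members) and 38.2%, and TATAAA in no member and 12.6%. GC content of the entries ran from 53.7% in Nkx2-1 to 72% in the first Egr2 entry, around a median of 56.3% over all entries.

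Distance from the start site to the nearest summit differed among the 7 genes. It was 33 bp in Nkx2-1, 68 bp in Irx3 and 92 bp in Egr2, then 471 bp in Nkx2-2, 714 bp in Gbx2, 1255 bp in Emx2 and 2465 bp in En1. The Egr2 value is the least over its 5 annotated starts, and its other starts lay 612 to 976 bp from a summit. The other members with an entry have 1 start each. The median of the 7 was 471 bp and the median over all genes was 354 bp. En1 lay beyond 78.0% of genes in this distance and Nkx2-1 beyond 7.62%. In every one of the 7 the nearest summit lay downstream of the start. The downstream summit was the nearer one for 59.0% of entries over all genes. Emx2 had the widest stretch without a summit around its start, 8148 bp, from 6893 bp upstream to 1255 bp inside the gene. In En1 this stretch measured 5120 bp.

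**Figure D1:**
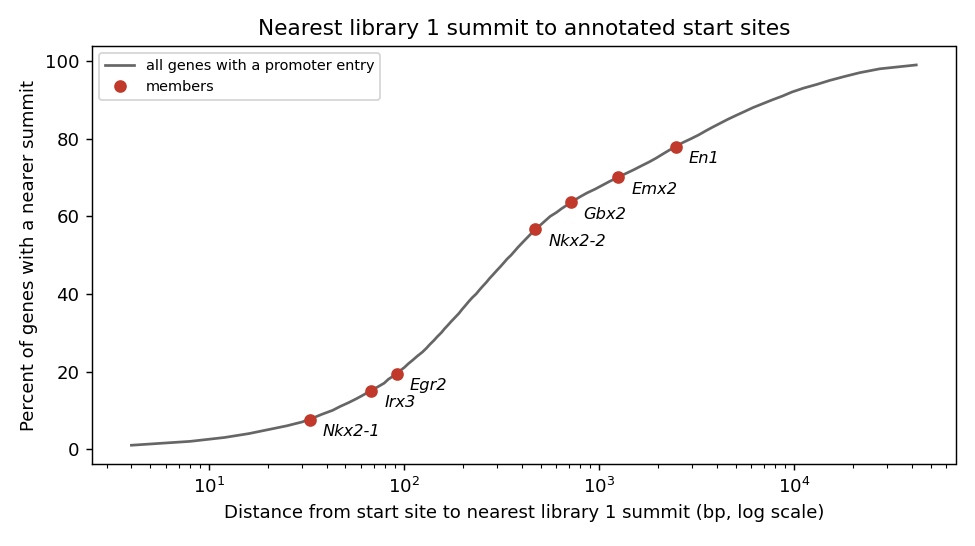
Distance from the annotated start site to the nearest library 1 summit (bp, log scale) against the percent of genes with a nearer summit; the line is all genes with a promoter entry and points are the 7 members with one. Nkx2-1, Irx3 and Egr2 sit at 33 to 92 bp, and Emx2 and En1 beyond 1 kb. Egr2 is placed by the one of its 5 starts nearest a summit.

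Summit counts per window were 7 for Emx2, 9 for Otx1, 11 for Nkx2-1, 16 for Nkx2-2, 12 for Irx3, 9 for En1, 7 for En2, 20 for Gbx2 and 10 for Egr2. Windows differ in length, so levels are compared as summits per Mb of window. From lowest to highest these densities were 262 in Emx2, 264 in En2, 335 in Otx1, 353 in En1, 361 in Egr2, 411 in Nkx2-2, 440.5 in Nkx2-1, 518 in Irx3 and 862 in Gbx2. The 95% Poisson intervals, which cover counting error only, overlapped in all 8 neighbouring pairs of that order and in all 36 pairs of members. Along the brain axis, values were lower in En1 (353), En2 (264) and Egr2 (361) than in Irx3 (518), which precedes them, and the highest, Gbx2, stood between En2 and Egr2.

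The median density of the members, all on autosomes, was 361 per Mb. It was 326 over all protein-coding genes and 352 over autosomal ones. Densities lay above the median of all genes in 7 of 9 members, where 50% of all genes do by construction, and above the autosomal median in 6. In 8 of 9 they fell in the interquartile range of all genes (134 to 590.1 per Mb). Gbx2 was the exception, denser than 93.2% of genes. That rank depended on the window and the peaks counted. It was 80.4% with 5 kb flanks, 78.8% with 20 kb flanks and 67.9% in the gene body alone. With peaks of −log10 q of at least 5 it was 72.4%, and with only peaks at or under the median width 99.7%. Counting any overlap of a peak with the window gave 92.8%. Gbx2 had no peak among the 10% of highest fold, so its rank there was 0%. With only peaks of −log10 q of at least 5, 2 of 9 members exceeded the median of all genes.

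**Figure D2:**
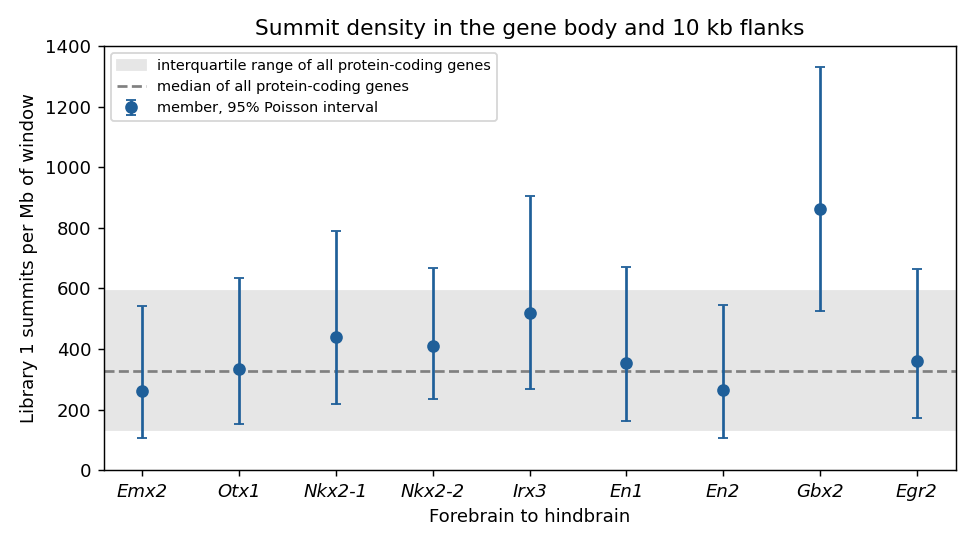
Library 1 summits per Mb in the gene body and 10 kb flanks of each member, ordered from forebrain to hindbrain, with 95% Poisson intervals; the dashed line and grey band are the median and interquartile range of all protein-coding genes. Gbx2 at 862 per Mb is above the band and the other 8 members are within it.

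Member gene bodies held more summits per Mb than their flanks. Together the 9 bodies held 38 summits in 63.6 kb, or 598 per Mb (423 to 821), and the flanks held 63, or 350.0 per Mb (269 to 448). Over all protein-coding genes these values were 306 and 355 per Mb. Of the 38 body summits, 12 lay in Nkx2-2, whose annotated body includes 9032 bp before its start site with a promoter entry. Member genes are short, with a median length of 6495 bp against 17169 bp over all genes, and the part of length in this difference was not tested. Gene by gene, the median body density was 622 per Mb in members and 371 over all genes. The body was denser than the flanks in 8 of 9 members, with Gbx2 the exception, and in 55.4% of all genes. Among those 8, the bodies of Emx2, Irx3 and En1 held only 2 summits each. Their body densities were 300 (36.3 to 1083), 636 (77.0 to 2298) and 363 per Mb (44.0 to 1312), so the order within these genes is uncertain. With all 9 members the pooled intervals of bodies and flanks overlapped. Without Gbx2, the member that went the other way, the body density was 597 per Mb (418 to 826) and the flank density 281 per Mb (205 to 376). These intervals pool the summits of all genes and leave out the spread between genes.

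**Figure D3:**
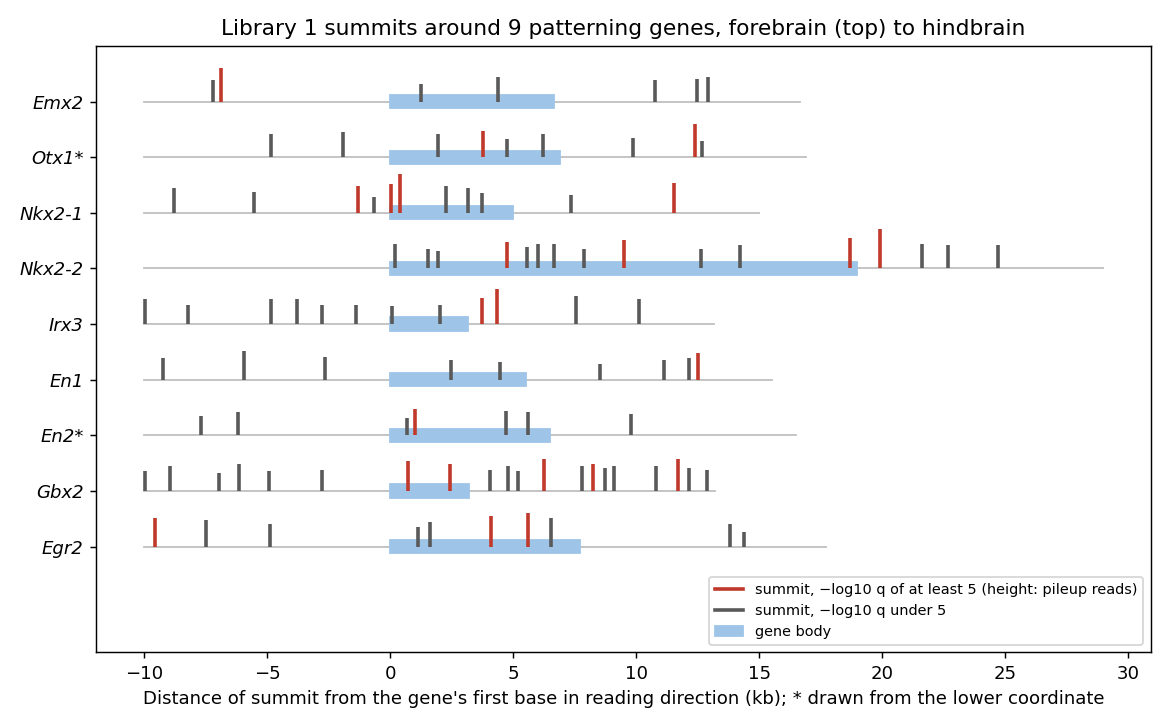
Library 1 summits (vertical lines, height proportional to pileup) by distance in kb from the gene's first base in reading direction, 1 gene per row from forebrain to hindbrain; blue boxes are gene bodies, red marks −log10 q of at least 5, and Otx1 and En2 are drawn from the lower coordinate. Summits of Gbx2 fill the region after the gene, and no summit lies in the 10 kb before the first base of Nkx2-2. The Nkx2-2 start site with a promoter entry is 9032 bp inside the gene, and summits lie before it within the body.

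Emx2 (chr19:59458690-59465357) is a homeobox gene needed for growth and area identity of the cerebral cortex. It had 2 summits upstream, 2 in the body and 3 downstream. Its highest peak, chr19:59451709-59452130, lay 6893 bp from the start, inside the antisense gene Emx2os, at 5.39-fold enrichment on 19 stacked reads (95% Poisson interval 11.4 to 29.7). The other 6 peaks had folds of 2.60 to 3.85, all with −log10 q under 5.

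Otx1 (chr11:21994764-22001651) encodes an Otx factor of forebrain and midbrain. Its body held 4 summits, the lower flank 2 and the higher flank 3. The highest peak, chr11:22007062-22007243, had the same fold, 5.39, and 19 reads, but its summit lay within the neighbouring gene Ehbp1, 5495 bp from Otx1. Inside Otx1 the highest fold was 4.31, at chr11:21998313-21998609, with 15 reads (8.40 to 24.7), where the lncRNA gene Gm32517 is also annotated.

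Nkx2-1 (chr12:56531935-56536908) specifies hypothalamus and ventral telencephalon, and thyroid and lung outside the brain. Its summits lay from 8782 bp upstream to 11516 bp downstream of the start site. The highest peak, chr12:56536389-56536598, lay 415 bp inside the gene with 22 reads (13.8 to 33.3), a fold of 6.19 and a −log10 q of 9.90. The peak across the start site, chr12:56536783-56536954, had a fold of 4.58 and 16 reads (9.15 to 26.0). A further peak, chr12:56538119-56538290, had its summit 1303 bp before the start, with a fold of 4.31 and 15 reads. These are 3 of the 4 Nkx2-1 peaks with −log10 q of at least 5. The other, chr12:56525337-56525504, had its summit 11516 bp downstream of the start, with a fold of 4.13 and 17 reads. Body density was 1005 per Mb (326 to 2346), the highest of the members and above 89.8% of genes.

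Nkx2-2 (chr2:147176485-147195434) is a homeobox gene of ventral progenitors. The annotated gene is the longest of the 9 at 18950 bp and held 12 summits. No summit lay in the 10 kb before its first base. The start site with a promoter entry is 9032 bp inside the gene, and the peak chr2:147185706-147186003 had its summit 471 bp beyond it, with a fold of 4.58 and 16 reads. At the other end, the peak chr2:147175400-147175837 lay 951 bp past the gene, with a fold of 6.19 and 22 reads (13.8 to 33.3), the same values as the highest Nkx2-1 peak. Beside it, a peak 261 bp inside the gene had a fold of 4.85 and 17 reads (9.90 to 27.2).

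Irx3 (chr8:91798511-91801654), an Iroquois homeobox gene, had 6 summits upstream, 2 in its 3144 bp body and 4 downstream. The 2 peaks with −log10 q of at least 5 lay together past the end of the gene. One, chr8:91797242-91797421, was 1202 bp from the gene, with a fold of 4.82 and 20 reads (12.2 to 30.9), and the other was 591 bp from it, with a fold of 4.21 and 15 reads. The peak nearest the start site was low, with a fold of 2.50 and 10 reads.

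En1 (chr1:120602487-120607991) and En2 (chr5:28165696-28172190) encode the engrailed homeobox factors of midbrain and anterior hindbrain. They had 9 and 7 summits and the lowest maximal folds of the 9 members, 4.31 in each, above the maximum of 7.67% of genes with a summit. In En1 that peak lay 7010 bp past the gene, chr1:120614930-120615152, within 2 annotated lncRNA genes. In En2 it lay in the body, 1001 bp from the lower end, chr5:28166594-28166965. Both peaks rested on 15 reads (8.40 to 24.7). En1 had no summit within 1 kb of either end, whereas En2 had summits 682 and 901 bp inside its lower and higher ends.

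Gbx2 (chr1:89927962-89931176) had summits mainly in its downstream flank, 12 in 10 kb, against 6 upstream and 2 in the body of 3215 bp. Peaks covered 21.7% of the window, and 5.31% to 12.6% in the other members. The peaks chr1:89919430-89919934 and chr1:89924581-89925009, 8467 and 3052 bp past the gene, both had a fold of 5.12 and 18 reads (10.7 to 28.4). Number and height went apart here: Gbx2 had most summits, yet its highest fold was below that of 5 other members, and none of its peaks was among the 10% of library 1 peaks with the highest fold. The wider region was also dense, with 664 summits per Mb within 100 kb (557 to 786) and 526 within 1 Mb (494 to 558), against medians of 334 and 315 over all genes. Gbx2 stood highest of the members at both distances, followed by Irx3 (556 and 409 per Mb). With 5 kb flanks Irx3 was slightly denser than Gbx2 (685 and 681 per Mb), and in the body alone Nkx2-1 was densest.

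Egr2 (chr10:67534469-67542188), a zinc finger gene of hindbrain segments, had 5 summits in the body, 3 upstream and 2 downstream. Its highest peak, chr10:67539967-67540462, lay in the body with a fold of 5.39 and 19 reads (11.4 to 29.7). The body peak chr10:67538243-67539110 was the widest of all 101, at 868 bp, with a fold of 4.85 and 17 reads; its summit was 612 bp beyond the last annotated start. Both downstream summits lay within the neighbouring gene Ado.

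Peaks at the 9 genes were low within library 1. Folds ran from 2.18 to 6.19 with a median of 3.50, and pileups from 8 to 22 reads with a median of 13. The median fold of every member, from 3.23 in En1 to 3.83 in Irx3, was under the library 1 median of 3.90, which held for 50.2% of the 20739 genes with a summit. Of the 101 peaks, 23 (22.8%) had a −log10 q of at least 5, against 40.04% of the summits in windows of all protein-coding genes. Folds at or above 5.39, the cut for the highest 10% of library 1, belonged to 5 peaks (4.95%). The share over the summits in windows of all protein-coding genes was 9.99%. There was 1 each in Emx2, Otx1, Nkx2-1, Nkx2-2 and Egr2, and those of Emx2, Otx1 and Egr2 equalled the cut. With such ties, 10.8% of library 1 peaks reached it. Counted by gene, all 9 members had a peak with −log10 q of at least 5 (88.2% of all genes), and 5 had a peak in that highest 10% (67.2% of all genes). The median of the highest folds was 5.39 in members and 5.79 over all genes. The median window was 26.5 kb in members and 37.2 kb over all genes, and its part in these highest folds was not tested.

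**Figure D4:**
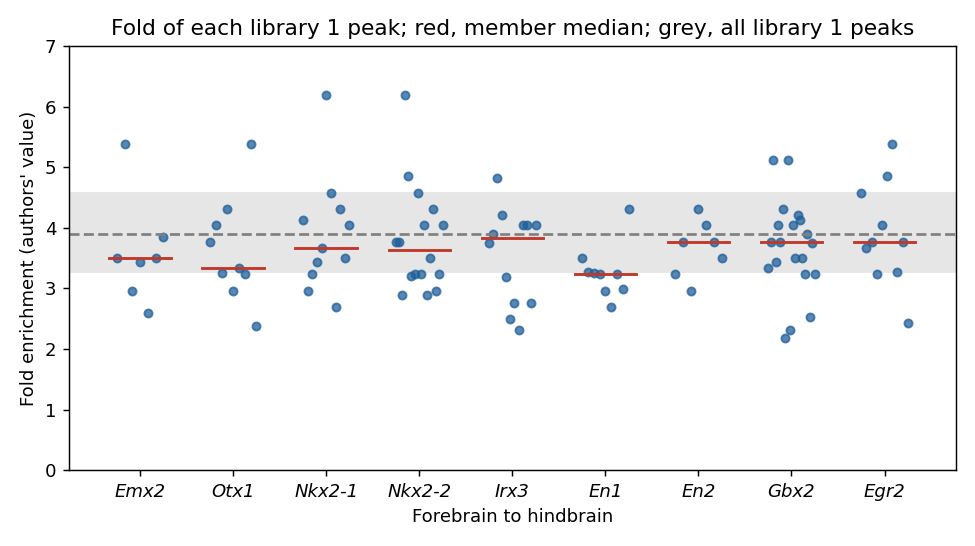
Fold enrichment of each of the 101 library 1 peaks (points, the authors' values) by member, with the member median in red; the dashed line and grey band are the median and interquartile range of all library 1 peaks. Every member median lies below the dashed line at 3.90, and the highest points, 6.19, are in Nkx2-1 and Nkx2-2.

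A summit within 1 kb of an annotated gene end was present in 6 of 9 members, against 77.1% of all protein-coding genes. The exceptions were En1 (nearest summit 1050 bp from an end), Egr2 (1122 bp) and Emx2 (1255 bp). At the outer limit of the windows, the outermost summits counted were 9960 bp from Gbx2 and 9950 bp from Irx3, with folds of 3.23 and 4.04. The nearest left out were 10049 bp from En1 and 10168 bp from Otx1, with folds of 3.23 and 4.04. Of the 101 summits, 40 lay inside another annotated gene, mostly long non-coding or antisense RNA genes next to the member, and peaks cannot be assigned to a single gene where annotations overlap.

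The other regulators of brain patterning, 45 genes in 5 regional lists, all had a library 1 summit in the window (94.8% of all genes). None of these regulators had a library 2 summit, which 0.192% of all genes had. Their median density was 429 per Mb, and 31 of 45 exceeded the median of all genes. Of their 1083 summits, 32.0% had a −log10 q of at least 5, against 40.04% of the summits in windows of all protein-coding genes. In the telencephalon list (median 469 per Mb) Emx1, a cortical homeobox gene, was densest at 739 per Mb and Lhx2 had the highest fold, 6.06. In the diencephalon and hypothalamus list (388 per Mb) these were Six3, at 706 per Mb, and Irx5, a neighbour of Irx3 in the Iroquois cluster, with a fold of 6.73. Genes of the midbrain and isthmus, the signalling centre between midbrain and hindbrain, had the highest list median, 564 per Mb. There the growth factor gene Fgf17 reached 882 per Mb. Pax5 reached a fold of 7.81, with 148 summits in a window of 206 kb, against a median window of 53.0 kb in that list. The part of window length in the highest folds was not tested. In the hindbrain list (401 per Mb) Gbx1, the paralogue of Gbx2, reached 778 per Mb. In the list for the ventral and dorsal neural tube (374 per Mb) Nkx6-2 reached 939 per Mb and shared the highest fold, 6.46, with Pax3. The lists hold 8 to 10 genes and overlap in their ranges, and no difference between them was tested.

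**Figure D5:**
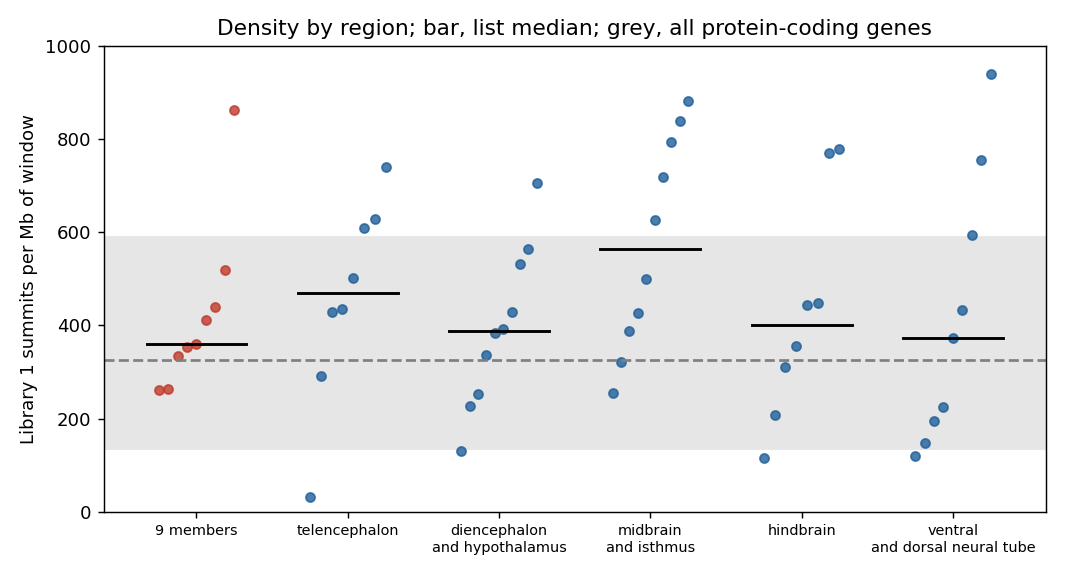
Library 1 summits per Mb of window for the 9 members (red) and 45 other patterning regulators by region (blue), each point 1 gene and each bar a list median; the dashed line and grey band are the median and interquartile range of all protein-coding genes. List medians run from 361 in the members to 564 in the midbrain and isthmus list, with wide overlap between lists.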

How the data were processed

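Per the submitters' processing notes, the tools were MACS2 2.1.0, Bowtie 1.1.2, Trimmomatic 0.33 and bcl2fastq 2.17, with builds mm10 and hg38; no role or setting is given. Each library has 1 deposited narrowPeak list, per the file headers. The authors' lists give a score (the −log10 q times 10, truncated), a fold enrichment (a ratio), −log10 p-values and −log10 q-values, and a summit offset. All coordinates are mm10, counted from 1.

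Gene positions came from RefSeq GRCm38.p6, and all 9 members and 45 listed genes matched by symbol. Otx1 and En2 have no promoter entry. A whole pileup was solved from fold and −log10 p for each member peak (tolerance 0.002 on the −log10 scale, largest mismatch 1.35e-05), reading the fold as pileup over background with 1 read added to each. Of the 101 peaks, 65 were called at the genome-wide background of 2.71 reads. Percentiles are the share of genes with a lower value. Intervals are 95% exact Poisson intervals. The window counts and the pileup solution were checked on simulated data. Python 3.11.15, pandas 2.3.3 and scipy 1.17.1 were used. The members and lists were chosen with earlier results of these data known. Named genes were all members and, in each regional list, the densest gene, that of highest fold and any without a summit (there were none). A result that this rule calls for is not reported here. The design has 1 group and no contrast, so no test was made.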

Additional observations from a re-analysis of the deposited data

How the results depend on the processing

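All 9 members kept a library 1 summit in the window under 6 of 7 alternatives, where 85.7% to 97.3% of all genes did. With only the 10% of peaks of highest fold, 5 of 9 members and 26 of the 45 other patterning genes did, against 67.2% of all genes. The 101 summits, all from library 1, became 23 with −log10 q of at least 5, 5 with the highest 10% of folds, 49 with peaks at or under the median width, 66 with 5 kb flanks, 157 with 20 kb flanks and 38 in gene bodies alone. Over the libraries together the sum ran from 0 without library 1 to 101 without library 2. The median density of 361 per Mb became 86.4 with −log10 q of at least 5 (125 over all genes) and 25.7 with the highest folds (28.4 over all genes), below all genes in both, and above all genes otherwise. It was 187 with narrow peaks (162 over all genes) and 622 in gene bodies alone (371 over all genes). Members above the median of all genes numbered 7, but 2 with −log10 q of at least 5 and 4 with the highest folds. Members with a summit near an end numbered 6, but 2 of 9 with the highest folds (13.5% of all genes) and 3 of 9 within 500 bp (65.8% of all genes). The other 38 of 59 recomputed values stayed within 1.5 times the reported count, or at 0 where that was the count. For the median density the limit was the wide counting interval of the median gene, Egr2 (173 to 663 per Mb). Some of the 38 could not have moved. Stricter peaks or shorter windows cannot raise the 0 members with a library 2 summit, and leaving out library 2 cannot change the sum. The sums over the libraries also repeat the library 1 counts. The tally of 38 is therefore no measure of stability. Fewer peaks or shorter windows lower these counts by construction. With 7 to 20 summits a gene, the density intervals of the members could not be separated.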

Other observations

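The 39 Hox genes, which set position in the hindbrain and trunk, all had a library 1 summit in the window (94.8% of all genes). Their median was 446 summits per Mb, and 34 of 39 were above the median of all genes. Their peaks were low as well: 19.8% of 505 summits had a −log10 q of at least 5, beside 22.8% at the 9 members and 40.04% over all genes. Neighbouring Hox windows share peaks. The 14 hepatocyte genes, which are active in liver, had a median of 327 per Mb, with 7 of 14 above the median of all genes, and 43.5% of their 184 summits had a −log10 q of at least 5. These differences were not tested.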
